A study of Mus musculus with 9 samples.

Results

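The immune checkpoint and costimulation genes examined here are 10 genes by which macrophages engage T cells: Cd274, Pdcd1lg2, Lgals9, Havcr2, Cd80, Cd86, Icosl, Cd276, Cd40 and Tnfsf9. They were chosen by name, and their members are all non-control spots of the arrays that carry those names: 12 probes for the 10 genes, out of 55681 probes in all. All 10 genes and all 12 probes passed the filter on dim probes and were tested, among 16463 genes and 21196 probes. The study measured RNA of C57BL/6J mouse macrophages on 9 Agilent single-colour arrays in 3 groups of 3. These were tumour-associated macrophages (TAMs) of a fibrosarcoma with a high level of the macrophage surface marker encoded by Adgre1 (F4/80high TAMs), TAMs of the same tumour type with a low level of it (F4/80low TAMs), and control macrophages of the peritoneal exudate (PECs). The labels name no treatment, transgene, age or sex, and do not say how the peritoneal cells were elicited, which tumour line was used, or whether each sample came from 1 animal or a pool. The series calls the samples biological replicates without saying more, so the p-values measure the spread between these samples, which may be partly technical.

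T cells need a signal through their antigen receptor and a second, costimulatory signal, and the ligands for the second signal sit on antigen-presenting cells such as macrophages. CD80 and CD86 engage CD28 to stimulate and CTLA-4 to restrain, ICOS ligand and 4-1BB ligand (Tnfsf9) stimulate, and PD-L1 (Cd274) and PD-L2 (Pdcd1lg2) restrain T cells through PD-1. CD40 works in the other direction: it is a receptor by which T cells carrying CD40 ligand activate the macrophage. Havcr2 (TIM-3) is also a receptor and is listed with galectin-9 (Lgals9), one of its ligands.

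Cd274 and Pdcd1lg2, the PD-1 ligand genes, are neighbours on mouse chromosome 19, with start sites 43.5 kb apart in GRCm38.p6. They are shown first because they moved in opposite directions between the TAM subsets. Lgals9 on chromosome 11 is shown because it alone, of the promoters at hand, held the interferon element described below. The RefSeq table (GRCm38.p6) gave promoters of 300 bases, 250 before and 50 after the start, for 7 of the 10 genes: these 3, Cd276, Icosl, Havcr2 and Cd80. Cd40, Cd86 and Tnfsf9 were not matched. Each sequence is written 5′ to 3′ on the gene's strand. Capitals mark matches to the interferon-stimulated response element (GAAA, 2 further bases, GAAA), the gamma-activated site (TTC, 3 bases, GAA) or the NF-kappaB site (GGG, 5 bases, CC), searched on both strands. No matches of different motifs overlapped in the promoters shown.
Cd274, chr19:29367188-29367487, plus strand: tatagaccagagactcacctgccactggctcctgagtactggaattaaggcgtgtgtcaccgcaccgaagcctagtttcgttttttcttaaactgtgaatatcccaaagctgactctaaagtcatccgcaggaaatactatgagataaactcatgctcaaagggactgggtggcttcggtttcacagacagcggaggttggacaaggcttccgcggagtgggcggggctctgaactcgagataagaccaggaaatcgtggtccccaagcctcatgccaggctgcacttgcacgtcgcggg
Pdcd1lg2, chr19:29410669-29410968, plus strand: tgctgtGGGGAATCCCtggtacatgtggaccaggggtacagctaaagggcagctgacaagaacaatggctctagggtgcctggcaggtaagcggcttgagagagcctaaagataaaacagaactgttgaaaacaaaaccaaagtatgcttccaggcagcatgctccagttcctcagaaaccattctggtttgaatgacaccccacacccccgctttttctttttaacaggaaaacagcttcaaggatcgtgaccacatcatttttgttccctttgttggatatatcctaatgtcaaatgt
Lgals9, chr11:78984875-78985174, minus strand: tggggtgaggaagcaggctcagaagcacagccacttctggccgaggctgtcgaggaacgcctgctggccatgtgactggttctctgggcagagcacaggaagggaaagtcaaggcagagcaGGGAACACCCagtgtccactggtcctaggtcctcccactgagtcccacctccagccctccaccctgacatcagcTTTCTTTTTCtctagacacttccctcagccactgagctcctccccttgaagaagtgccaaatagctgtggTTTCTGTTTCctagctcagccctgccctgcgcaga

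The Lgals9 promoter held 2 matches to the interferon element, both on the reverse strand, TTTCTTTTTC beginning 55 bases before the start and TTTCTGTTTC beginning 16 bases after it. This motif occurred in 3.44% of the 32851 promoters in the table and in 1 of the 7 members' promoters. The gamma-activated site occurred in 8.30% of all promoters and in 0 of the 7. The NF-kappaB motif, which 50.8% of all promoters hold, occurred in 5 of the 7, not in Cd274 or Havcr2. A match is a description of letters in this window only.

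The probes that stood for the genes lie, in mm9 coordinates from the scanner files, at chr19:29462363-29462422 for Cd274 and chr19:29545470-29545529 for Pdcd1lg2. Lgals9 was read at chr11:78776922-78776981 and Havcr2 at chr11:46294675-46294734. The B7 genes were read at chr16:38486772-38486831 (Cd80), chr16:36603961-36604020 (Cd86), chr10:77542211-77542270 (Icosl) and chr9:58372107-58372150 (Cd276). Cd40 was read at chr2:164897085-164897144 and Tnfsf9 at chr17:57247062-57247121. Exon and UTR annotation of that build was not used here.

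Levels are log2 intensities relative to the 75th percentile of each array, so a level of 0 equals that percentile and values can be negative. Levels of different probes are not comparable with each other. Between 36.1% and 38.3% of spots per array were well above background, the software's call that a spot stands out from its surroundings, and no spot was saturated. All 10 genes were well above background on every array of both TAM subsets, and 7 of 10 on every PEC array. The arrays lay on 2 slides: slide 1 held all 6 TAM arrays and PEC replicate 1, and slide 2 held PEC replicates 2 and 3. Values within slide 1, which rest on that 1 PEC array, are therefore given beside the comparisons of the 10 genes with PECs. They are not given for the listed pathway genes and markers. Macrophage markers were present: 8 of 8 were above background throughout in F4/80high TAMs, 7 of 8 in F4/80low TAMs, which lacked Mertk, and 8 of 8 in PECs. Their summed level, in multiples of the 75th percentile, was 849 to 1301, 570 to 850 and 947 to 1143 in the same order. Between the subsets, 5 of the 8, Adgre1 among them, were higher in F4/80high TAMs and 0 lower, against 18.6% and 14.0% of all genes. The part of this in the results below was not tested. Adgre1, the gene of the marker that divides the TAMs, lay between 5.70 and 6.21 in F4/80high TAMs, between 2.45 and 3.44 in F4/80low TAMs and between 5.71 and 6.17 in PECs.

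Genes of other cell types differed between the groups, most in F4/80low TAMs. The summed level of the neutrophil markers, in multiples of the 75th percentile, was 221 to 323 in F4/80high TAMs, 1830 to 6521 in F4/80low TAMs and 118 to 154 in PECs, and 4, 8 and 3 of the 8 markers on the array were above background throughout. In F4/80high TAMs and PECs most of the sum was Csf3r, whose mean levels were 7.79, 7.78 and 6.98 in the 3 groups. Of the 8 markers, 7 were lower in F4/80high than in F4/80low TAMs and 0 higher. NK cell markers summed to 0.445 to 0.820 in F4/80high TAMs, 14.0 to 31.4 in F4/80low TAMs and 0.375 to 0.550 in PECs, with 0, 4 and 0 of 6 above background. T cell markers summed to 12.9 to 17.4, 27.2 to 53.8 and 7.39 to 12.2 in the same order, with 3, 8 and 4 of 9 above background. In F4/80high TAMs and PECs most of that sum was Cd4, while Cd3d, Cd3g, Cd2, Cd5, Cd8a and Trat1 were above background on no F4/80high array. Dendritic cell markers summed to 325 to 368 in F4/80high TAMs, 276 to 311 in F4/80low TAMs and 429 to 551 in PECs, sums made up mostly of the bright probes of Siglech and, in PECs, Itgax. Gene by gene, 4 of the 7 that were tested were higher and 2 lower than in PECs in each TAM subset. Ccr7 and Fscn1 rose in both subsets and Itgax and Clec10a fell in both, while Zbtb46 was above background in F4/80high TAMs alone and Flt3 in F4/80low TAMs alone. Fibroblast markers summed to 2.08 to 3.12, 9.33 to 18.9 and 2.37 to 2.96, with 3, 4 and 3 of 7 above background. The higher sum in F4/80low TAMs was mostly that of Thy1, which T cells also express. Col3a1 was also called higher there than in PECs, with a log2 fold change of 2.34 (adjusted p = 0.00365). Its change from PECs in the F4/80high subset was 2.31 (adjusted p = 0.0035). Both sizes rest on PEC arrays where Col3a1 was not above background. Col1a1, Col1a2 and Dcn were not called in the F4/80low subset against PECs (adjusted p = 0.949, 0.871 and 0.421). The part of these cells in the results below was not tested, and in bulk RNA fewer cells of a type and less RNA per cell cannot be told apart.

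**Figure D1:**
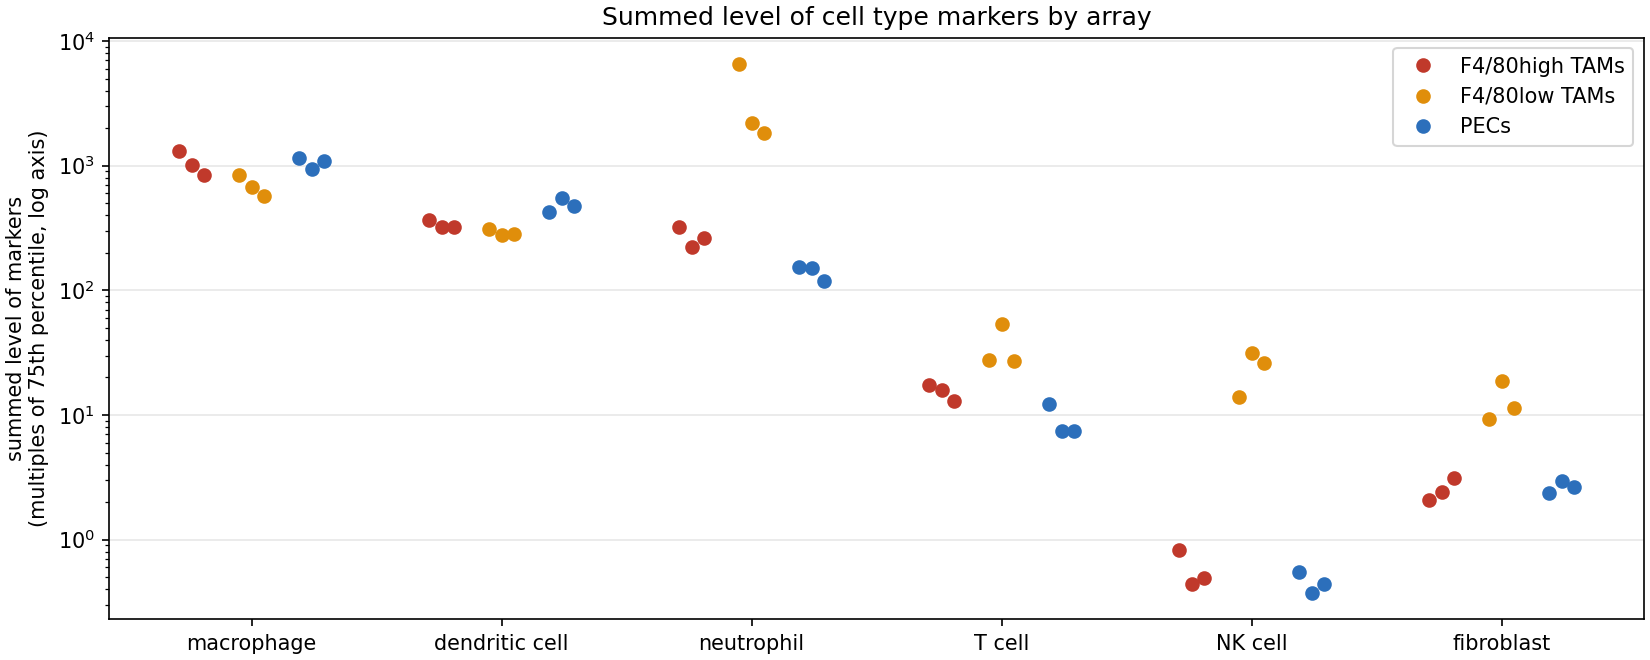
Summed level of each cell type's markers on every array, in multiples of the array's 75th percentile on a log axis, with F4/80high TAMs (red), F4/80low TAMs (orange) and PECs (blue) side by side. Neutrophil and NK cell markers were highest on the 3 F4/80low arrays, at 1830 to 6521 and 14.0 to 31.4.

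Against PECs, F4/80high TAMs changed in 8 of the 10 genes by an adjusted p of 0.05 (limma across all genes, Benjamini-Hochberg), 7 higher and 1 lower. Among all genes tested 53.1% changed, 25.0% higher and 28.0% lower. The median log2 fold change was 2.42 over the 10 genes and 0.00 over all genes. F4/80low TAMs changed in 7 of the 10, 6 higher and 1 lower, against a background of 51.9%, with 22.7% higher and 29.2% lower, and medians of 1.75 and -0.09. F4/80high TAMs differed from F4/80low TAMs in 8 of the 10, 6 higher and 2 lower, against a background of 32.6%, with 18.6% higher and 14.0% lower, and medians of 1.36 and 0.08. Of the 12 probes 10, 9 and 9 were called in these 3 comparisons, against 52.5%, 50.8% and 31.9% of all probes. The arrays of the groups compared did not overlap for 9, 6 and 8 of the 10 genes, against 65.2%, 59.3% and 46.7% of all genes. Both comparisons with PECs share the same PEC arrays. Centring each array on its median instead moved the median of all genes to -0.16, -0.57 and 0.40 in these 3 comparisons. It also changed the share of calls that were higher, from 43.8% to 22.1% for F4/80low TAMs against PECs and from 57.1% to 75.9% between the TAM subsets.

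**Figure D2:**
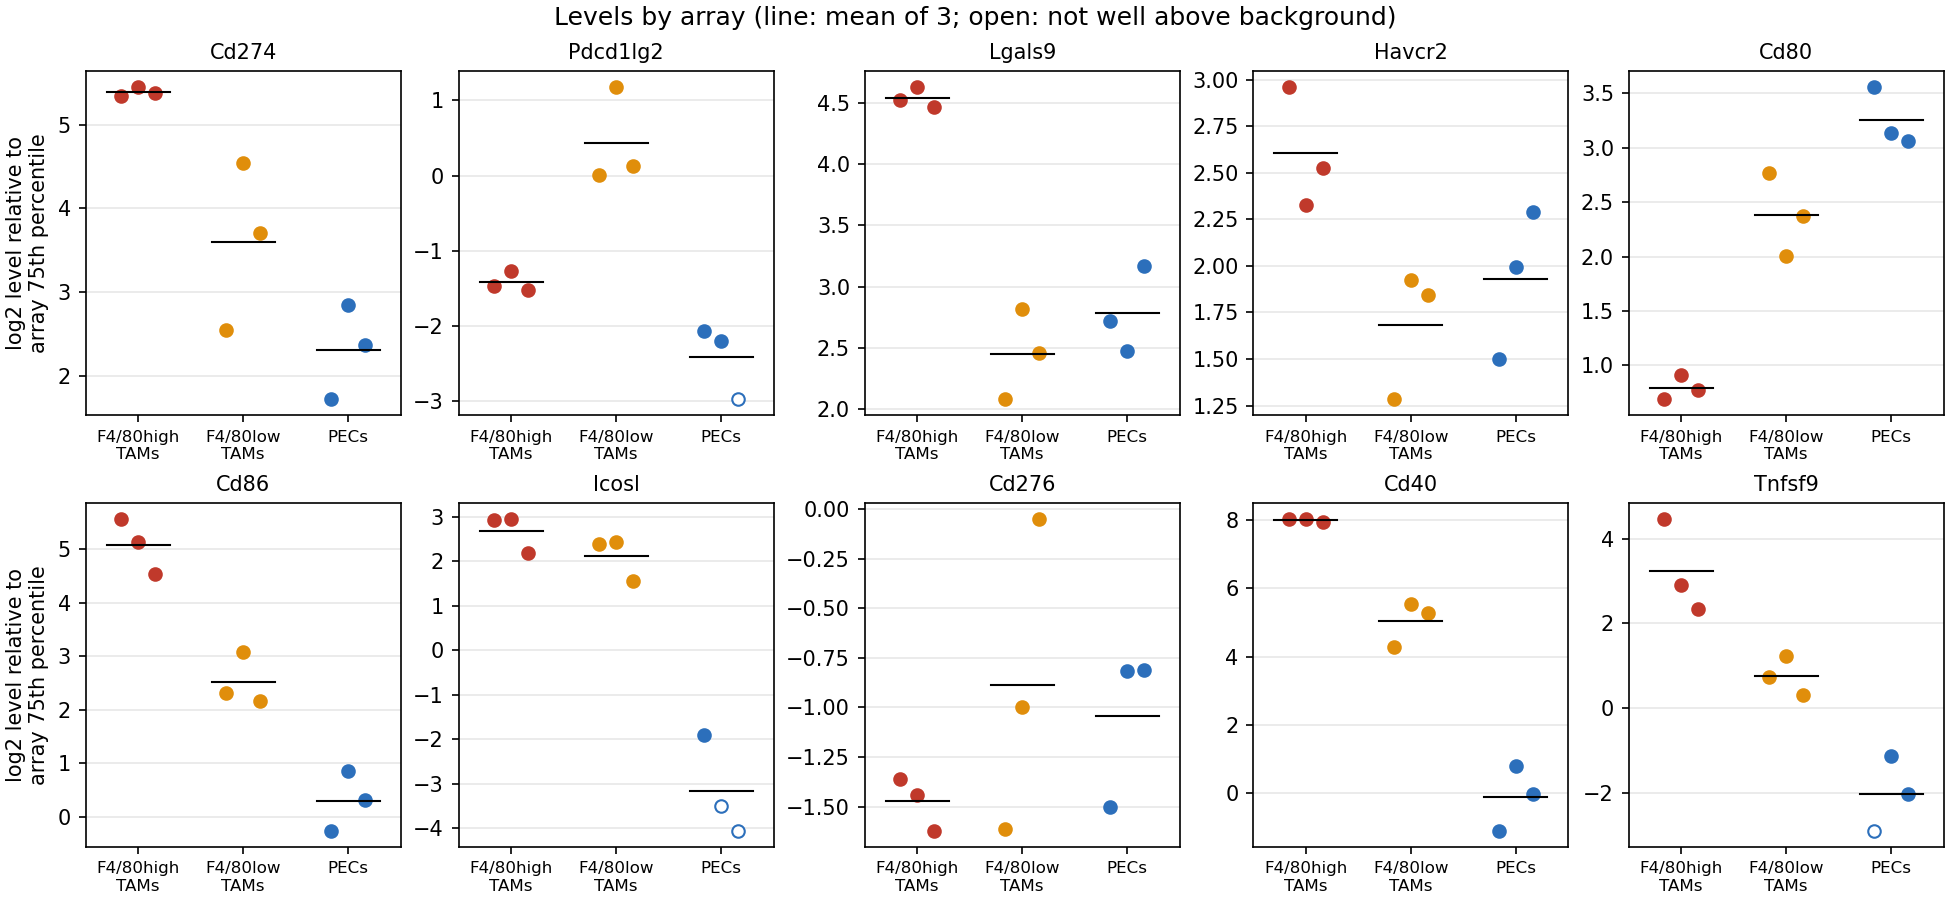
Level of each gene on every array, as log2 relative to the array's 75th percentile, with F4/80high TAMs, F4/80low TAMs and PECs from left to right and a line at each mean of 3. Open points were not well above background. Cd40 stands near 8 on all F4/80high arrays and between -1.13 and 0.78 on the PEC arrays, while Cd80 runs the other way.

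Cd274 encodes PD-L1, the interferon-inducible ligand that restrains T cells through PD-1. Its levels were 5.34, 5.45 and 5.38 on the F4/80high TAM arrays, 2.55, 4.55 and 3.70 on the F4/80low TAM arrays, and 1.72, 2.84 and 2.37 on the PEC arrays. The F4/80high arrays lay close together above all others, while F4/80low replicate 1 lay inside the PEC range. Cd274 was 8.45-fold higher in F4/80high TAMs than in PECs (log2 fold change 3.08 with SE 0.46, adjusted p = 0.000478; 3.67 within slide 1). It was 3.46-fold higher in F4/80high than in F4/80low TAMs (1.79 with SE 0.46, adjusted p = 0.0153). In F4/80low TAMs it was 2.44-fold higher than in PECs (1.29 with SE 0.46, adjusted p = 0.0407; 1.88 and adjusted p = 0.0775 within slide 1), and this call was lost when any 1 array was left out other than F4/80low replicate 1 or PEC replicate 2. Without F4/80low replicate 2 the log2 fold change was 0.81 (adjusted p = 0.127).

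Pdcd1lg2, which encodes PD-L2, the more narrowly expressed ligand of PD-1, was highest in F4/80low TAMs. Its levels were -1.47, -1.27 and -1.53 on the F4/80high TAM arrays, 0.01, 1.18 and 0.12 on the F4/80low TAM arrays, and -2.06, -2.21 and -2.98 on the PEC arrays, of which replicate 3 was not well above background. No 2 groups overlapped. F4/80low TAMs were 7.24-fold higher than PECs (log2 fold change 2.86 with SE 0.34, adjusted p = 0.000168; 2.50 within slide 1). F4/80high TAMs were 3.63-fold lower than F4/80low TAMs (-1.86 with SE 0.34, adjusted p = 0.00307), where Cd274 was higher. These log2 fold changes were smaller with normexp background correction, at 1.11 and -0.74, and in the deposited table, at 1.11 and -0.92, all still called. F4/80high TAMs were 1.99-fold higher than PECs (1.00 with SE 0.34, adjusted p = 0.0342, and 0.64 within slide 1), a call lost in 11 of 19 alternatives. Among these were normexp (0.37, adjusted p = 0.102) and quantile normalization (0.74, adjusted p = 0.101). It was also lost without any 1 of the F4/80high arrays, PEC replicate 2 or PEC replicate 3, with adjusted p between 0.0518 and 0.127. The lowest log2 fold change in an alternative was 0.18.

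A second Pdcd1lg2 probe overlaps the first over 57 of 60 bases. Of these, 55 are identical and 2 differ, C53T and G58A, counted from 1 at the 5′ end of probe A_55_P2122075, with its base first. The shared stretch that holds both differences (mm9 chromosome 19, plus strand; capitals mark the differing bases) is shown because the probes are near copies and are not independent measurements.
A_55_P2122075: tggaagcatttaagcaacacgtCaagtGcc
A_55_P2187141: tggaagcatttaagcaacacgtTaagtAcc
The second probe gave log2 fold changes of 1.12 for F4/80high TAMs against PECs, 2.81 for F4/80low TAMs against PECs and -1.69 between the subsets, in the same directions as the first. It was above background on 1 of 3 PEC arrays.

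Lgals9 encodes galectin-9, a sugar-binding ligand of TIM-3 that interferons induce. Its levels were 4.53, 4.63 and 4.46 on the F4/80high TAM arrays, 2.08, 2.82 and 2.46 on the F4/80low TAM arrays, and 2.72, 2.47 and 3.17 on the PEC arrays. The F4/80high arrays stood above all others, and the F4/80low and PEC arrays overlapped. It was 3.38-fold higher in F4/80high TAMs than in PECs (log2 fold change 1.76 with SE 0.24, adjusted p = 0.000276; 1.83 within slide 1) and 4.26-fold higher in F4/80high than in F4/80low TAMs (2.09 with SE 0.24, adjusted p = 0.000273). F4/80low TAMs and PECs differed by -0.34 (95% interval -0.87 to 0.20, adjusted p = 0.264; -0.27 within slide 1), a difference that was called with median centring, at -0.81 (adjusted p = 0.0423).

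Havcr2 encodes TIM-3, an inhibitory receptor of T cells that macrophages also carry. Its levels were 2.96, 2.33 and 2.52 on the F4/80high TAM arrays, 1.28, 1.92 and 1.84 on the F4/80low TAM arrays, and 1.50, 2.00 and 2.29 on the PEC arrays. The F4/80high arrays lay above all others, the lowest of them just above the highest PEC array, and the F4/80low and PEC arrays overlapped. It was 1.89-fold higher in F4/80high than in F4/80low TAMs (log2 fold change 0.92 with SE 0.27, adjusted p = 0.0284), a call lost with the paired TAM replicates as a block among the TAM arrays alone (adjusted p = 0.0748). It was also lost without F4/80high replicate 1 (0.74, adjusted p = 0.0975), F4/80high replicate 3 (0.96, adjusted p = 0.0583) or F4/80low replicate 1 (0.72, adjusted p = 0.0838). F4/80high TAMs exceeded PECs by 0.68 (95% interval 0.06 to 1.29, adjusted p = 0.0614; 1.10 within slide 1) and F4/80low TAMs differed from PECs by -0.24 (adjusted p = 0.474; 0.18 within slide 1). The first of these was called in 5 of 19 alternatives, among them quantile normalization (0.76, adjusted p = 0.0306), slide as a block (1.10, adjusted p = 0.0391) and the deposited table (0.70, adjusted p = 0.00995).

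Cd80 and Cd86 encode the B7 molecules that share CD28 and CTLA-4 as receptors, and Cd86 differed in the opposite direction to Cd80 as read by the brighter of its 2 probes. Cd86 levels were 5.57, 5.14 and 4.53 on the F4/80high TAM arrays, 2.31, 3.08 and 2.16 on the F4/80low TAM arrays, and -0.27, 0.85 and 0.32 on the PEC arrays. The 3 groups did not overlap. Cd86 was 27.4-fold higher in F4/80high TAMs than in PECs (log2 fold change 4.78 with SE 0.37, adjusted p = 9.98e-06; 5.35 within slide 1). It was 4.63-fold higher in F4/80low TAMs than in PECs (2.21 with SE 0.37, adjusted p = 0.00116; 2.78 within slide 1) and 5.92-fold higher in F4/80high than in F4/80low TAMs (2.57 with SE 0.37, adjusted p = 0.000921).

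Cd80, read by its brighter probe, had levels of 0.69, 0.91 and 0.77 on the F4/80high TAM arrays, 2.77, 2.00 and 2.37 on the F4/80low TAM arrays, and 3.56, 3.13 and 3.06 on the PEC arrays. The groups again did not overlap, but here PECs were highest. By that probe Cd80 was 5.52-fold lower in F4/80high TAMs than in PECs (log2 fold change -2.46 with SE 0.23, adjusted p = 2.68e-05; -2.77 within slide 1). It was 1.83-fold lower in F4/80low TAMs than in PECs (-0.87 with SE 0.23, adjusted p = 0.011; -1.18 within slide 1) and 3.02-fold lower in F4/80high than in F4/80low TAMs (-1.59 with SE 0.23, adjusted p = 0.000882).

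A second Cd80 probe did not follow the first. It lies 7369 bases upstream of it on the plus strand of chromosome 16 (mm9). The first 30 of the 60 bases of each are shown because the direction of the gene against PECs depends on which is read.
A_55_P2001218: aaaggagaggtgcctagtcttactgcaact
A_66_P130432: ttcaatacgactcgcaaccacaccattaag
The upstream probe A_66_P130432 was dim, with levels of -0.56, -1.18 and -1.32 on the F4/80high TAM arrays, -0.27, -0.77 and -1.19 on the F4/80low TAM arrays, and -2.67, -1.57 and -1.76 on the PEC arrays, of which replicate 1 was not well above background. Here both TAM subsets lay above PECs. The log2 fold change was 0.98 for F4/80high TAMs against PECs (with SE 0.35, adjusted p = 0.04). This call was lost in 10 of 18 alternatives, among them quantile normalization (adjusted p = 0.132), median centring (0.138) and the replicate block (0.0604). For F4/80low TAMs against PECs the log2 fold change was 1.26 (with SE 0.35, adjusted p = 0.015). That call was lost with quantile normalization (adjusted p = 0.0573) and median centring (0.143). Neither difference from PECs changed sign in any alternative. Between the subsets the log2 fold change was -0.27 (adjusted p = 0.597), which turned to 0.04 with median centring. Within slide 1 the differences from PECs were 1.65 and 1.93, against the PEC array not well above background. With the probes averaged, F4/80low TAMs and PECs differed by 0.19 (adjusted p = 0.476) rather than by -0.87. Neither probe's exon was annotated here, so which transcripts each one reads was not tested.

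**Figure D3:**
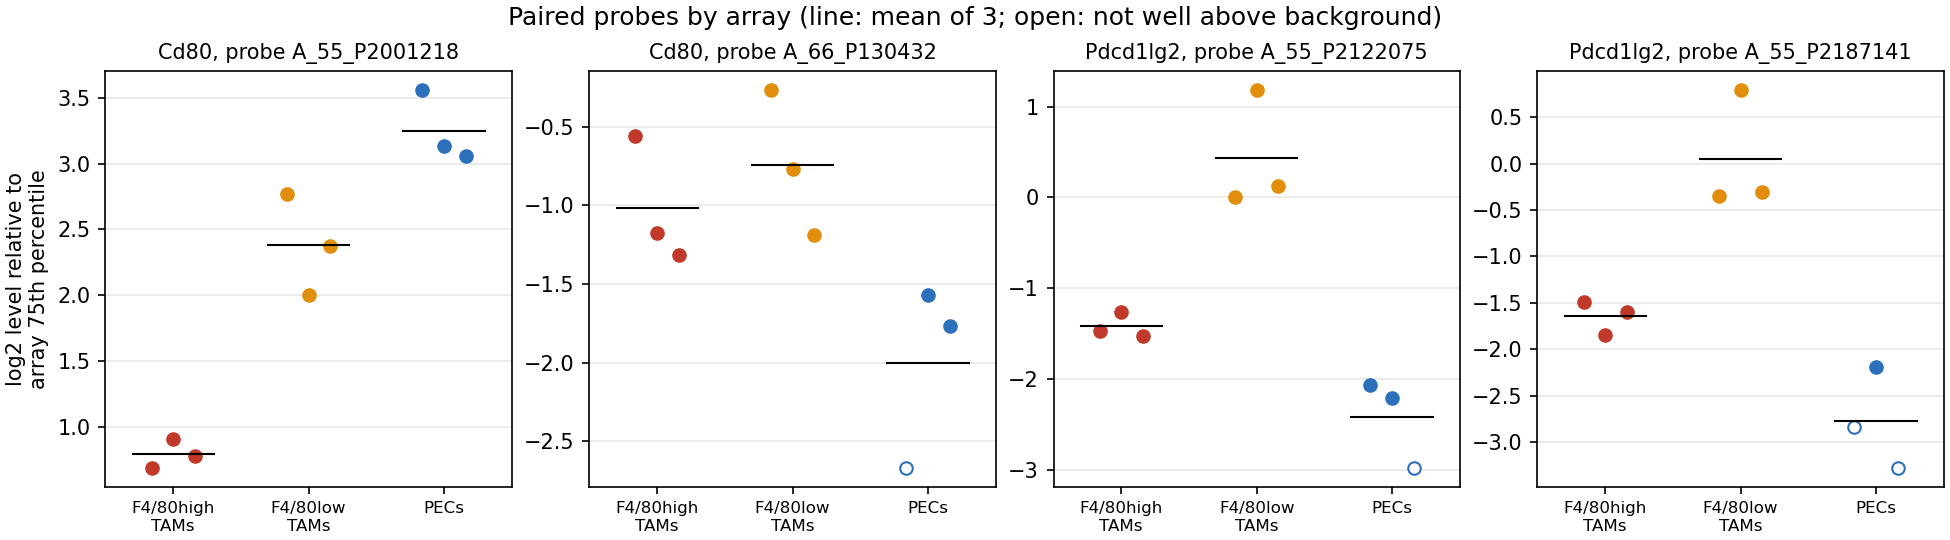
Levels by array of both Cd80 probes (left pair) and both Pdcd1lg2 probes (right pair), as log2 relative to the array's 75th percentile, with F4/80high TAMs, F4/80low TAMs and PECs from left to right, a line at each mean and open points where not well above background. By group mean the Cd80 probes order the TAMs and PECs in opposite ways, and the upstream probe's calls against PECs were lost in some alternatives. The near-identical Pdcd1lg2 probes follow each other.

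Icosl encodes the ligand of ICOS, the costimulatory receptor of activated T cells. Its levels were 2.93, 2.96 and 2.18 on the F4/80high TAM arrays, 2.39, 2.44 and 1.56 on the F4/80low TAM arrays, and -1.91, -3.50 and -4.07 on the PEC arrays, of which 1 of 3 showed it well above background. Both TAM subsets lay above PECs on every array and overlapped each other. Icosl was 57.6-fold higher in F4/80high TAMs than in PECs (log2 fold change 5.85 with SE 0.51, adjusted p = 2e-05) and 39.0-fold higher in F4/80low TAMs than in PECs (5.29 with SE 0.51, adjusted p = 4.97e-05). These sizes rest on PEC arrays of which 2 of 3 were not well above background, and they were smaller with another background correction (normexp), at 3.04 and 2.45, and in the deposited table, at 3.16 and 2.73. Within slide 1, whose PEC array is the one above background, the log2 fold changes were 4.60 and 4.04. The subsets differed by 0.56, with a 95% interval of -0.59 to 1.72 (adjusted p = 0.447), which includes differences of over 1 on the log2 scale.

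Cd276 encodes B7-H3, a B7 family member whose receptor is not settled. Its levels lay between -1.62 and -1.36 in F4/80high TAMs, between -1.61 and -0.05 in F4/80low TAMs, and between -1.50 and -0.81 in PECs. All groups overlapped, and the F4/80low arrays spread most. No difference was called: -0.43 for F4/80high TAMs against PECs (95% interval -1.26 to 0.39, adjusted p = 0.345), 0.16 for F4/80low TAMs against PECs (-0.67 to 0.98, adjusted p = 0.739) and -0.59 between the subsets (-1.41 to 0.24, adjusted p = 0.258). Within slide 1 the differences from PECs were 0.03 and 0.62, and median centring gave -0.32 for F4/80low TAMs.

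Cd40 showed the largest change of the 10 genes in all 3 comparisons except F4/80low TAMs against PECs, where that of Icosl was larger. Its levels were 8.03, 8.05 and 7.95 on the F4/80high TAM arrays, 4.28, 5.54 and 5.28 on the F4/80low TAM arrays, and -1.13, 0.78 and -0.05 on the PEC arrays. The groups did not overlap, and the F4/80high arrays lay close together. Cd40 was 282-fold higher in F4/80high TAMs than in PECs (log2 fold change 8.14 with SE 0.46, adjusted p = 1.89e-06; 9.13 within slide 1). It was 35.8-fold higher in F4/80low TAMs than in PECs (5.16 with SE 0.46, adjusted p = 3.2e-05; 6.16 within slide 1) and 7.87-fold higher in F4/80high than in F4/80low TAMs (2.98 with SE 0.46, adjusted p = 0.00134).

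Tnfsf9 encodes 4-1BB ligand, which costimulates T cells through 4-1BB (Tnfrsf9). Its levels were 4.47, 2.91 and 2.35 on the F4/80high TAM arrays, 0.73, 1.23 and 0.31 on the F4/80low TAM arrays, and -2.90, -1.14 and -2.03 on the PEC arrays, of which replicate 1 was not well above background. The groups kept apart, although the F4/80high arrays spread more than for any other of the genes. Tnfsf9 was 38.6-fold higher in F4/80high TAMs than in PECs (log2 fold change 5.27 with SE 0.58, adjusted p = 7.62e-05). It was 6.87-fold higher in F4/80low TAMs than in PECs (2.78 with SE 0.58, adjusted p = 0.00371) and 5.61-fold higher in F4/80high than in F4/80low TAMs (2.49 with SE 0.58, adjusted p = 0.01). The differences from PECs were smaller with normexp, at 3.15 and 1.12 (adjusted p = 0.000141 and 0.0371), and in the deposited table, at 3.27 and 1.18. Within slide 1 they were 6.15 and 3.66, against a PEC array not well above background.

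**Figure D4:**
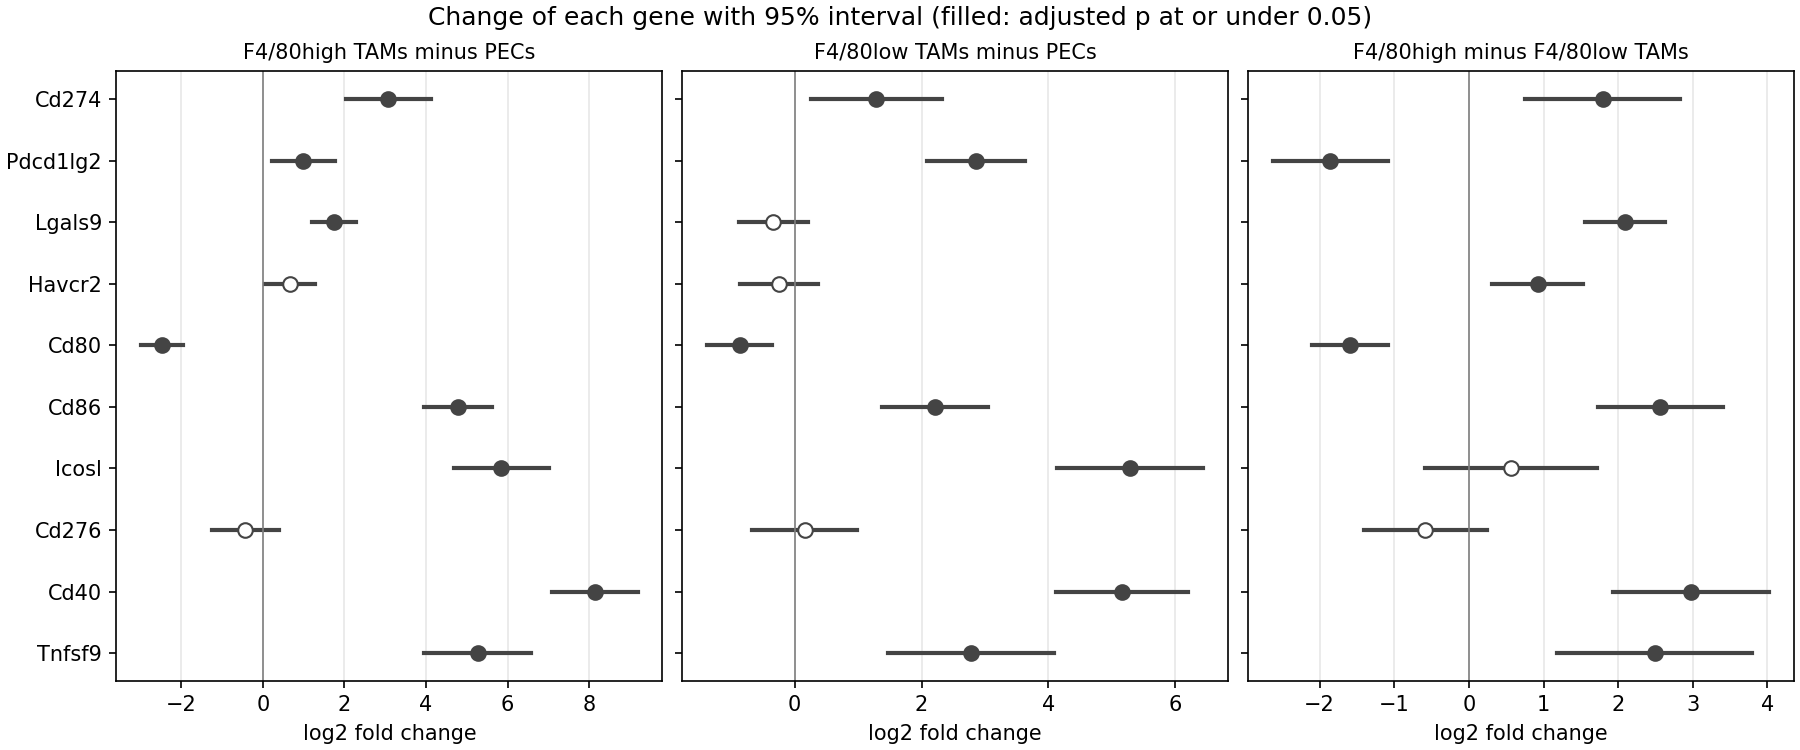
Log2 fold change of each gene with its 95% interval for F4/80high TAMs minus PECs, F4/80low TAMs minus PECs and F4/80high minus F4/80low TAMs, with filled points where the adjusted p was at or under 0.05. Cd274, Cd86, Cd40 and Tnfsf9 were higher in all 3 panels, Cd80 by its brighter probe lower in all 3, and Cd276 open throughout.

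The genes thus fell into several orders by group mean. Cd86, Cd40 and Tnfsf9 were highest in F4/80high TAMs, then F4/80low TAMs, then PECs, with each step called. Cd274 had that order too, but F4/80low and PEC arrays overlapped, and the call between these groups was lost in 13 of 19 alternatives. Icosl shared that order without a called step between the subsets. Lgals9 and Havcr2 were highest in F4/80high TAMs, with F4/80low TAMs and PECs overlapping and not called apart except for Lgals9 with median centring. Pdcd1lg2 was highest in F4/80low TAMs, and Cd80 by its brighter probe was lowest in F4/80high TAMs and highest in PECs.

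A list of costimulatory and inhibitory receptors of T and NK cells, some of which bind these ligands, held 14 genes, of which 8 passed the filter on dim probes. Icos, Cd96 and Tnfrsf18 passed it only through the F4/80low arrays, so the filter in part fixed that they were higher there. Like the lists below, this one was chosen with earlier results of these data known. In F4/80high TAMs 4 were higher and 1 lower than in PECs, in F4/80low TAMs 7 were higher and 0 lower, and F4/80high TAMs were higher than F4/80low TAMs in 2 and lower in 5. Medians were 0.71, 3.64 and -1.98, or 0.71, 2.36 and -1.38 with genes that one group did not show above background set at their bounds. The shares of all genes in these comparisons were 25.0%, 22.7% and 18.6% higher and 28.0%, 29.2% and 14.0% lower. Lag3, an inhibitory receptor for MHC class II, was at least 14.4-fold higher in F4/80high TAMs than in PECs (adjusted p = 2.32e-07) and at least 8.72-fold higher in F4/80low TAMs than in PECs (adjusted p = 6.96e-07). Pdcd1, which encodes PD-1, was at least 3.66-fold higher in F4/80high TAMs (adjusted p = 0.000434) and at least 5.56-fold higher in F4/80low TAMs (adjusted p = 0.000183), each against PECs. Here "at least" marks a group with no array above background, entered at the lowest signal well above background on its arrays where that was higher.

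Between the subsets, the 2 receptors higher in F4/80high TAMs were Tnfrsf9, the receptor for Tnfsf9, and Lag3, whose arrays overlapped. Their log2 fold changes were 1.42 and 0.72 (adjusted p = 0.00239 and 0.0382), and Tnfrsf9 is named here after its value was seen. Other receptors of the list were higher in F4/80low than in F4/80high TAMs. The T and NK cell marker sums were also higher in F4/80low TAMs, and the part of those cells in this was not tested. Tnfrsf18, which encodes GITR, was at least 18.1-fold lower in F4/80high than in F4/80low TAMs (adjusted p = 0.000194), and its log2 fold change for F4/80low TAMs against PECs, of which 1 of 3 arrays was above background, was 4.41 (with SE 0.53, adjusted p = 0.000167). Icos, the receptor for Icosl, was at least 3.78-fold lower in F4/80high than in F4/80low TAMs (adjusted p = 0.000134) and at least 4.75-fold higher in F4/80low TAMs than in PECs (adjusted p = 7.41e-05). Cd96, a receptor of nectin family ligands, was at least 2.32-fold lower in F4/80high than in F4/80low TAMs (adjusted p = 0.000592). Cd28, the receptor of Cd80 and Cd86, fell in F4/80high TAMs against PECs (-2.72 with SE 0.44, adjusted p = 0.000801).

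Among 29 other checkpoint ligands and inhibitory receptors, 23 were tested. Cd70 and Fasl passed the filter only through the F4/80low arrays and Vsig4 only through the PEC arrays, which in part fixed their direction. F4/80high TAMs were higher than PECs in 9 and lower in 7, F4/80low TAMs higher in 8 and lower in 10, and F4/80high higher than F4/80low TAMs in 11 and lower in 5. Medians were 0.43, 0.01 and 0.68, the same with bounds. Among all genes tested 25.0%, 22.7% and 18.6% were higher and 28.0%, 29.2% and 14.0% lower in these comparisons. Tnfsf10, which encodes the death ligand TRAIL, was at least 70.4-fold higher in F4/80high TAMs (adjusted p = 3.24e-06) and at least 6.62-fold higher in F4/80low TAMs (adjusted p = 9.07e-05) than in PECs. Tnfsf8, the ligand of CD30, was at least 26.8-fold and at least 7.94-fold higher in the same comparisons (adjusted p = 3.95e-07 and 3.05e-06). Vsig4, a complement receptor of resident macrophages that also restrains T cells, was at least 54.5-fold lower in F4/80high TAMs (adjusted p = 8.11e-07) and at least 51.2-fold lower in F4/80low TAMs (adjusted p = 8.82e-07) than in PECs. Between the subsets, Nectin2, a ligand of TIGIT and DNAM-1, was higher in F4/80high TAMs (4.82 with SE 0.25, adjusted p = 5.89e-06), as was Tnfsf15, a TNF family cytokine that costimulates T cells (3.76 with SE 0.37, adjusted p = 0.000145). Cd70, the ligand of CD27, was at least 3.33-fold lower in F4/80high than in F4/80low TAMs (adjusted p = 0.000189).

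CD40 signals through TRAF adaptors to NF-kappaB, and 13 of 14 listed genes of that pathway were tested. In F4/80high TAMs 10 were higher and 0 lower than in PECs, in F4/80low TAMs 11 higher and 0 lower, and F4/80high TAMs exceeded F4/80low TAMs in 8, with 0 lower. Medians were 2.80, 1.67 and 0.89. Of all genes, 25.0%, 22.7% and 18.6% were higher and 28.0%, 29.2% and 14.0% lower in these comparisons. The list was chosen with earlier results of these data known and was not tested as a set, so its counts are a description only. Traf1, an adaptor of CD40 and 4-1BB, had log2 fold changes against PECs of 6.75 for the F4/80high subset (with SE 0.23, adjusted p = 1.58e-07) and 5.20 for the F4/80low subset (with SE 0.23, adjusted p = 7.15e-07). It was 1.55 higher on the log2 scale in F4/80high than in F4/80low TAMs (with SE 0.23, adjusted p = 0.00115). Nfkbia, the inhibitor that NF-kappaB itself induces, had 5.27 and 4.11 against PECs (with SE 0.18 each, adjusted p = 1.59e-07 and 6.96e-07). Tnfaip3, which encodes the brake A20, had 3.71 in F4/80high TAMs against PECs (with SE 0.34, adjusted p = 2.41e-05) and 2.04 between the subsets (with SE 0.34, adjusted p = 0.00178). Birc3, an inhibitor of apoptosis in the TRAF complex, had 2.63 in F4/80low TAMs against PECs (with SE 0.22, adjusted p = 2.03e-05), and Traf2 had 1.26 between the subsets (with SE 0.22, adjusted p = 0.00233).

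Interferon gamma induces Cd274 and Lgals9 in many cells, and all 14 listed genes of its signalling and its targets were tested. Ciita passed the filter only through the F4/80low arrays. F4/80high TAMs were higher than PECs in 9 and lower in 1, F4/80low TAMs higher in 9 and lower in 4, and F4/80high TAMs higher than F4/80low TAMs in 10 and lower in 0. Medians were 2.49, 1.26 and 0.80, or 2.28, 1.26 and 0.80 with bounds. For all genes the shares were again 25.0%, 22.7% and 18.6% higher and 28.0%, 29.2% and 14.0% lower. This list was not tested as a set. Cxcl10, a chemokine for activated T cells, was at least 5837-fold higher in F4/80high TAMs (adjusted p = 1.48e-09) and at least 1531-fold higher in F4/80low TAMs (adjusted p = 5.45e-09) than in PECs, and 1.93 higher on the log2 scale in F4/80high than in F4/80low TAMs (with SE 0.21, adjusted p = 0.000231). Cxcl9, a related chemokine, was at least 64.1-fold and at least 27.5-fold higher than in PECs in the F4/80high and F4/80low subsets (adjusted p = 8.69e-07 and 3.05e-06). Socs1, a feedback inhibitor of interferon signalling, had log2 fold changes of 7.80 and 4.80 against PECs and 3.01 between the subsets (with SE 0.38 each, adjusted p = 7.73e-07, 1.54e-05 and 0.000448). Nlrc5, the activator of MHC class I genes, had 1.98 between the subsets (with SE 0.55, adjusted p = 0.0227). The receptor gene Ifngr1 was the 1 lower in F4/80high TAMs, at -1.10 (with SE 0.28, adjusted p = 0.00854), and is named here after its value was seen.

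**Figure D5:**
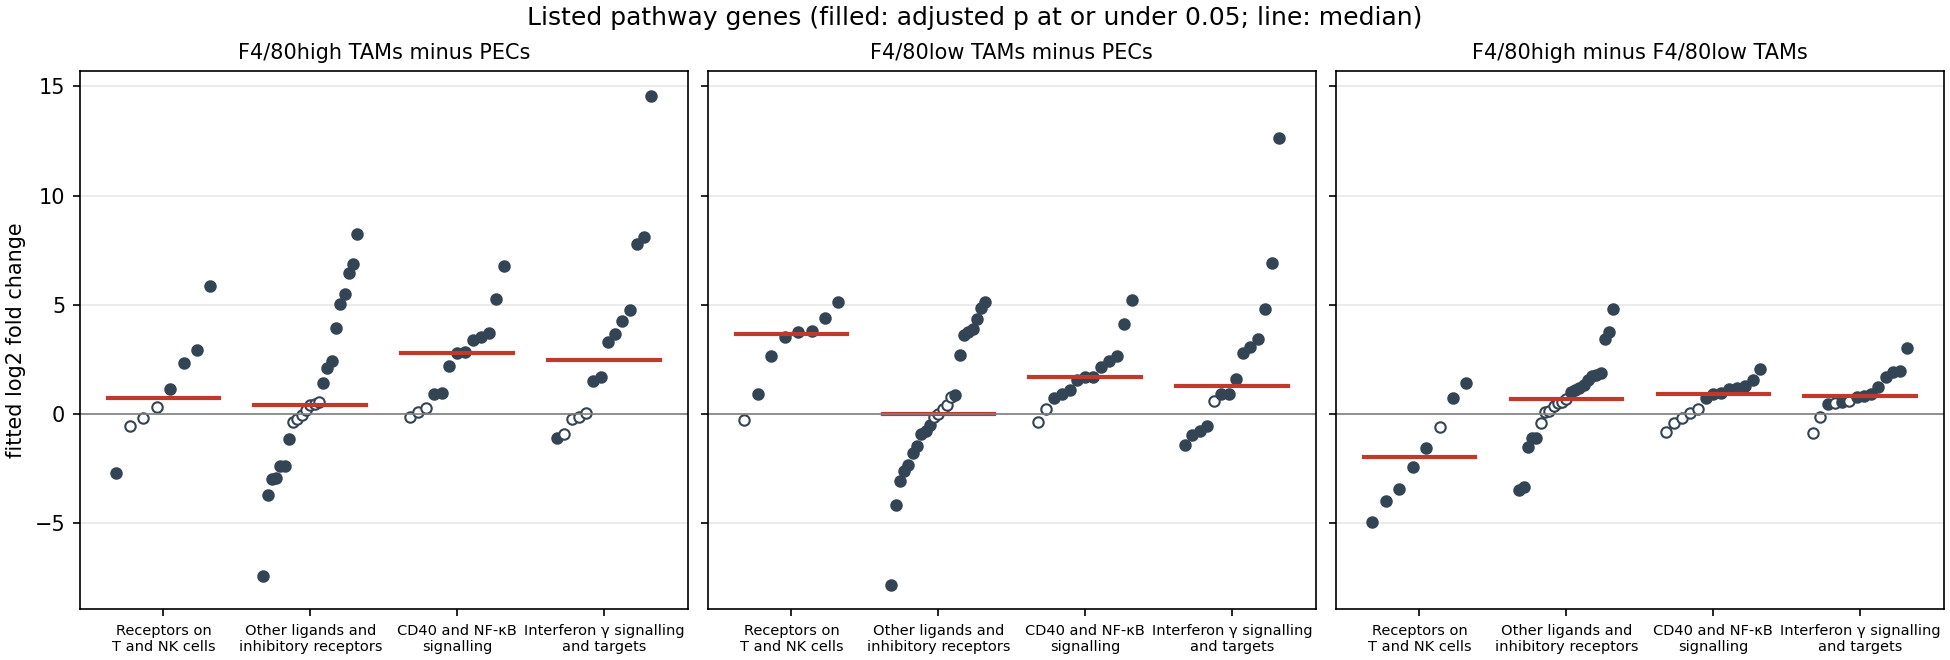
Fitted log2 fold changes of the tested genes of 4 lists (receptors on T and NK cells, other ligands and inhibitory receptors, CD40 and NF-κB signalling, interferon γ signalling and targets) in the 3 comparisons, ordered by size within each list. Filled points had an adjusted p at or under 0.05 and red lines are list medians. The NF-κB genes that were called all lay above 0 in each panel.

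The genes most like each member across the 9 arrays were named by Pearson's r, given as a description since group means dominate it. For Cd40 the most alike named gene was Socs1 (r = 0.998), for Cd86 Nup98 (0.993) and Niban1 (0.990), and for Cd80 Fam160a2 (0.991) and Nfam1 (0.987). For Lgals9 they were Tapbp (0.987), which encodes tapasin of the MHC class I loading complex, and Ankrd17 (0.986). For Cd274 they were Ap3m1-ps (0.987) and Wdr43 (0.986), for Tnfsf9 LOC677259 (0.994) and Tlr12 (0.992), and for Havcr2 Nup153 (0.973) and Ndufaf6 (0.955). Pdcd1lg2 was most alike to a transcript without a symbol (0.988) and Reep6 (0.983), and Icosl to LOC630442 (0.990) and an unnamed region (0.990). Cd276, which no comparison called, had the lowest values, 0.943 for Zfp566 and 0.942 for Zfand2a.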

How the data were processed

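RNA of 9 macrophage samples was read on Agilent single-colour arrays. Each scanner file, as deposited, gives spot intensity on a linear scale (Agilent Feature Extraction 10.5.1.1, protocol GE1_105_Dec08, per the file headers), which the software had corrected for background. A deposited table of log2 values for 9703 probes holds 10 of the 12 member probes; its column medians are 8.26 to 8.35, its normalization and the filter behind it are not given in the sources used here, and it served as an alternative. The members and lists were chosen with earlier results of these data known.

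From log2 intensity the 75th percentile of the array's 59305 non-control spots was subtracted. Outlier spots (103 to 307 per array) were left out. A probe was kept if some group showed it well above background on every array (21196 probes), and each gene was read by its brightest probe (16463 genes). All 9 arrays entered 1 fit in limma 3.58.1 (R 4.3.3; lmFit, eBayes), with 3 two-sided contrasts and Benjamini-Hochberg adjustment over all genes at 0.05; probe values come from the same fit over probes. In simulated data for F4/80high TAMs against PECs, 100 of 16463 genes were given each size of change. Of changes of 1 on the log2 scale 23% were recovered and of changes of 2 77%, with 9 false calls. In the data 53.1% of genes were called, which makes the adjustment less strict than in the simulation. The simulated shares are therefore not the power of this comparison. Precision is set by the number of arrays, with a median standard error of 0.236.

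Samples were grouped by their titles. TAM replicates with the same number deviated together (residual correlations 0.234, 0.171 and 0.134, different numbers at most 0.0225). The F4/80high and F4/80low replicates were therefore treated as paired, but only in the replicate block alternatives. The main fit, and so every main p-value between the subsets, left the pairing out. PEC numbers paired with neither. The named genes are all members, per list and comparison the 3 called genes with the largest change, and per member the 2 genes with the highest r. Probe positions are those of the files (mm9). Alternatives were normexp with an offset of 50, quantile normalization, median centring, no filter, averaged probes, the deposited table, fits to 2 groups, slide and replicate blocks, slide 1 alone and leaving out each array. Exon annotation was not used here. The B cell marker list is not reported here.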

Additional observations from a re-analysis of the deposited data

Results flagged for a closer look

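For 8 of the 10 genes the change from PECs differed between the TAM subsets; as both changes share the PEC arrays, the difference is the contrast of F4/80high against F4/80low TAMs (limma). In this contrast 32.6% of all genes were called. On the log2 scale the difference was 2.98 for Cd40, 2.57 for Cd86, 2.49 for Tnfsf9, 2.09 for Lgals9, 1.79 for Cd274 and 0.92 for Havcr2. It was -1.59 for Cd80 by its brighter probe and -1.86 for Pdcd1lg2. Each of the 3 arrays of one subset lay beyond all 3 of the other for every one of these genes, as for 46.7% of all genes. Neutrophil, T cell and NK cell markers were also higher in F4/80low TAMs, and 5 of the 8 macrophage markers were lower there. The part of either in these differences was not tested. The groups hold 3 arrays each, too few for a search for outlying arrays.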

How the results depend on the processing

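Over 660 member values recomputed under the alternatives, 592 kept their direction and their side of the threshold, 52 lost the call, 6 gained one and 10 changed sign. Members called numbered 7 to 9 (F4/80high against PECs), 6 to 7 (F4/80low against PECs) and 7 to 8 (between the subsets) when each array was left out, and 7 to 8, 6 to 7 and 7 to 8 in the other alternatives. Member probes called numbered 7 to 11, 8 to 9 and 8 to 9, and genes called 7015 to 9006, 6602 to 8468 and 3917 to 5510, when each array was left out. With slide as a block 5632 and 4907 genes were called in F4/80high and F4/80low TAMs against PECs, and within slide 1 alone, with fewer arrays, 4896 and 4127. Without the filter on dim probes 14388 were called for F4/80low TAMs against PECs; the cause was not tested. Sign changes were all in values not called in either setting, except Cd80 for F4/80low against PECs, at 0.19 with averaged probes. For F4/80low TAMs against PECs, Cd276 gave -0.32 with median centring, -0.26 to 0.52 when each array was left out (below 0 without F4/80low replicate 3 and without PEC replicate 1, at -0.07), and Havcr2 gave 0.18 with the slide block and within slide 1 and 0.024 in the deposited table. Cd276 gave 0.029 for F4/80high TAMs against PECs with the slide block and within slide 1. The upstream Cd80 probe gave 0.041 between the subsets with median centring. The 6 calls gained were Lgals9 for F4/80low TAMs against PECs with median centring and 5 for Havcr2 in F4/80high TAMs against PECs: with quantile normalization, the slide block, the deposited table, and without F4/80low replicate 1 (adjusted p = 0.0448) or PEC replicate 3 (0.86, adjusted p = 0.0452). The lost calls lay in Cd274 and Cd80 (F4/80low against PECs), Pdcd1lg2 (F4/80high against PECs), Havcr2 (between the subsets) and the second probes of Cd80 and Pdcd1lg2. The replicate block left 8, 7 and 8 members called; beyond the upstream Cd80 probe and, among TAM arrays alone (an alternative chosen after seeing the data), Havcr2, it changed no member call. Signal over background limits Icosl, Tnfsf9 and Pdcd1lg2 in PECs, where some arrays were not well above background.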

Other observations

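F4/80low replicate 2 had the highest level of its group for 8 of the 10 genes (Cd274, Pdcd1lg2, Havcr2, Cd86, Cd40, Lgals9, Icosl and Tnfsf9) and the lowest for Cd80 by its brighter probe, while F4/80low replicate 1 had the lowest level for 6. On these arrays the neutrophil marker sum was 6521 in replicate 1, and the T cell and NK cell marker sums were 53.8 and 31.4 in replicate 2, each the highest of the group. The macrophage and dendritic cell sums were also highest in replicate 1, at 850 and 311, and the fibroblast sum in replicate 2, at 18.9. The part of any of these cells in the order of the replicates was not tested. F4/80high replicate 3 had the lowest level of its group for 7 of the 10 genes and the highest for 0.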
